A study of Homo sapiens with 2 samples.

Results

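The DNA replication machinery was described here through 49 genes, of 26485 in the count table: the origin recognition and licensing factors, the replicative helicase and its activators, the replicative polymerases and primase, the sliding clamp and its loader, the proteins that coat single-stranded DNA and join Okazaki fragments, the fork protection factors and enzymes of nucleotide supply. They were taken by symbol from a list of the pathway, a rule that uses no measured value, and all 49 were found. RNA was sequenced from 2 established human leiomyosarcoma lines, SK-LMS-1, which came from a tumour of the vulva, and SK-UT-1, which came from a tumour of the uterus. Leiomyosarcoma is a cancer with smooth muscle features. Both lines had been given DMSO, a solvent control whose dose and time are not stated in the labels, and no drug-treated library was analysed here. The series concerns an inhibitor of the histone methyltransferase SUV39H2 combined with a poly(ADP-ribose) polymerase inhibitor, and the contrast described here is between the lines under solvent.

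The origin recognition complex marks the sites where replication starts, and CDC6 and CDT1 load the MCM2-7 helicase there in G1. In S phase the kinase CDC7-DBF4 and cyclin-dependent kinases bring CDC45 and GINS to the helicase, which then opens the double helix ahead of the polymerases. Most of these genes are transcribed around the G1-to-S transition, and E2F factors, which are held back by the retinoblastoma protein family, are the best known activators of their promoters. In bulk RNA, fewer cells in S phase and less RNA of a gene per cell cannot be told apart.

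Each line had 1 library, so no difference below has a replicate check and no test between the lines was possible. Depth was 6906280 counts in SK-LMS-1, against 7635850 in SK-UT-1. Levels are counts per 1000000 scaled counts (CPM) after scaling by the trimmed mean of M values, and differences are log2 ratios of SK-LMS-1 over SK-UT-1, so that a negative ratio means a higher level in SK-UT-1. Ranges in parentheses are exact 95% intervals that cover counting error only. Genes with 1 CPM or more in either library, 14324 in all, counted as measured. Of 12 smooth muscle markers 11 were measured. Of these, 6 passed 2-fold towards SK-LMS-1 and 3 towards SK-UT-1, beside 21.9% and 18.3% of all measured genes. The summed levels of the 12 were 1524 CPM in SK-LMS-1, against 574 CPM in SK-UT-1. CALD1 was the largest part of both sums, at 749 CPM in SK-LMS-1, against 343 CPM in SK-UT-1. DES, by contrast, had 1 count in SK-LMS-1, against 26 in SK-UT-1. MYLK, the myosin light chain kinase, had 414 CPM in SK-LMS-1, against 9.94 CPM in SK-UT-1 (log2 ratio 5.38, 5.06 to 5.72), and ACTG2, the enteric smooth muscle actin, had 39 counts in SK-LMS-1, against 0 in SK-UT-1. ACTA2, the vascular smooth muscle actin, had 10.5 CPM in SK-LMS-1, against 54.0 CPM in SK-UT-1 (-2.36, -2.75 to -1.99). MYH11, the smooth muscle myosin heavy chain, was close to 0, with 5 counts in SK-LMS-1, against 2 in SK-UT-1.

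The promoters of the replication genes shared sequence features that the choice of genes did not use. RefSeq windows on GRCh38.p14, from 250 bases before to 50 bases after each start, were matched for 43 of the 49 genes. The windows were searched on both strands for E2F-type letters (TTTCCCGC, TTTCGCGC, TTTGCCGC or TTTGGCGC) and for CCAAT, the letters read by the factor NF-Y. An E2F-type match was present for 22 of the 43 replication genes (51.2%), against 3.99% of all 27305 genes with a window and 6.61% of the 10395 measured ones. CCAAT was present for 26 of the 43 (60.5%), against 39.7% of all genes and 43.4% of the measured ones. Of the 43 genes, 13 had both and 8 had neither. The median GC content was 65.0% over the windows of the replication genes and 58.7% over all windows, and the part of base composition in these shares was not tested. A match describes letters in the window, not binding.

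Stretches of 160 bases upstream of 6 genes are printed 5′ to 3′ to show both features, with the matched letters in capitals. Each ends where either the RefSeq start or, if further out, the exon of the count table begins. MCM6, a helicase subunit, at chr2:135876478-135876637 (minus strand), held 4 E2F-type matches in a pair of identical runs, each matched on both strands by overlapping letters, and 2 CCAAT matches. CDT1, the licensing factor that loads the helicase, at chr16:88803618-88803777 (plus strand), held 1 E2F-type match. PCNA, the sliding clamp, at chr20:5126623-5126782 (minus strand), held 1 E2F-type and 3 CCAAT matches. POLA1, the catalytic subunit of polymerase alpha, at chrX:24693758-24693917 (plus strand), held 1 of each. MCM10, a helicase activator, at chr10:13161394-13161553 (plus strand), and ORC6, the smallest origin recognition subunit, at chr16:46689486-46689645 (plus strand), had no E2F-type match and 2 CCAAT matches each in the stretch shown.
MCM6: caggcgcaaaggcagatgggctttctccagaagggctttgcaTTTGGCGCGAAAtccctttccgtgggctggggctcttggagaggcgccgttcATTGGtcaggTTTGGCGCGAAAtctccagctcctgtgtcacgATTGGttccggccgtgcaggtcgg
CDT1: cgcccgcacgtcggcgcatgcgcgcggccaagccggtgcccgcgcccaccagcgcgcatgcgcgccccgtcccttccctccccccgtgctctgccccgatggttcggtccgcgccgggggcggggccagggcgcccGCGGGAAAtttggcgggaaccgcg
PCNA: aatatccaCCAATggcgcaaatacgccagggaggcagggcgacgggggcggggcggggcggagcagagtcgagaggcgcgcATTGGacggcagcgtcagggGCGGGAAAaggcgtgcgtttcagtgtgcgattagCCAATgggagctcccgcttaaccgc
POLA1: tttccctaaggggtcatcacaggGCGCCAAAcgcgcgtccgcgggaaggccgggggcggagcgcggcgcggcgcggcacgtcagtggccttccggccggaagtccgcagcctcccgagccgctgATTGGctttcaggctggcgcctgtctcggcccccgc
MCM10: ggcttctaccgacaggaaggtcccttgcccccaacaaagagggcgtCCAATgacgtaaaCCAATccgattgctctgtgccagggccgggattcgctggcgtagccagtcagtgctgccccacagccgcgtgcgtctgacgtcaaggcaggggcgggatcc
ORC6: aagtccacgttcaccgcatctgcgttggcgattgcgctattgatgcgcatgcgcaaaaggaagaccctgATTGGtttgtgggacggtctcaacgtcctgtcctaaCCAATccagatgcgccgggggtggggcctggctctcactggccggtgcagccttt

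Genes with several starts have several windows (55 in all), which can overlap, and a match was counted in each. Across them the 30 E2F-type matches lay near the start, with a median position of -42.5 bases and 24 of 30 between 100 bases before and 50 bases after it. The 56 CCAAT matches lay further out, with a median position of -79.5 bases and 38 of 56 in the same range around the start. The log2 ratio between the lines had a median of -0.56 over the 22 genes with an E2F-type match, 20 of them below 0, and -0.26 over the 21 genes without one, 16 of them below 0. The split by CCAAT ran the other way, with a median of -0.32 over the 26 genes with a match, 22 of them below 0, and -0.54 over the 17 genes without one, 14 of them below 0. Over all measured genes, 49.7% had a ratio below 0. For the E2F-type split, both groups spanned a wide range, from -1.13 to 0.17 with a match and from -1.25 to 0.69 without.

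**Figure D1:**
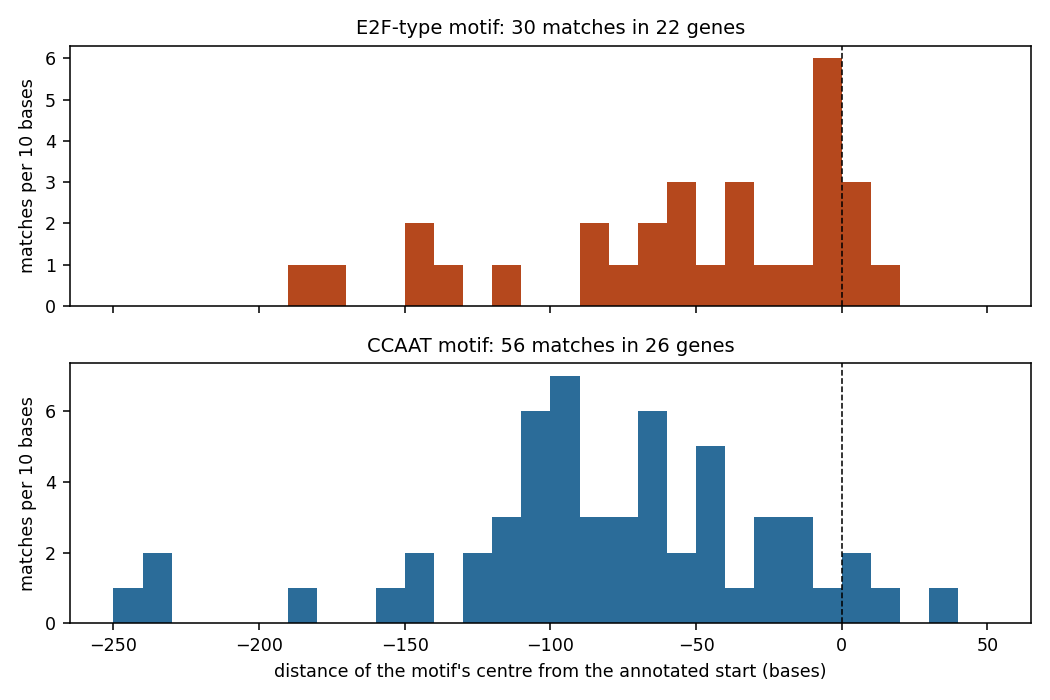
Position of each E2F-type and CCAAT match in the promoter windows of the 43 matched replication genes, as the number of matches per 10 bases of distance from the RefSeq start, counted in each of their 55 windows. E2F-type matches sit mostly close to the start (median -42.5) and CCAAT matches further upstream (median -79.5).

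All 49 replication genes were measured in both lines, and their levels were mostly lower in SK-LMS-1 by less than 2-fold. The ratio was below 0 for 41 genes, where 49.7% of all measured genes were below 0, and above 0 for 8, where 50.3% of all measured genes were above. The median log2 ratio was -0.44, against 0.01 over all measured genes. No replication gene was higher by 2-fold or more in SK-LMS-1, where 21.9% of all measured genes were. In the other direction 3 were higher by 2-fold or more in SK-UT-1, namely MCM4, MCM10 and POLE, which is 6.12% of the list beside 18.3% of all measured genes. The remaining 46 lay within 2-fold (93.9%, against 59.8% of all measured genes and 65.7% of genes at 5 CPM or more). At 1.5-fold, 2 genes were higher in SK-LMS-1 (background 30.8%) and 15 in SK-UT-1 (30.6% of the list, background 28.3%). The interval lay wholly below 0 for 36 genes, wholly above 0 for 4 and spanned 0 for 9. No share of all measured genes with such intervals is given, here or for the role groups below. These counts therefore have no background to be read against.

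The ratios of the replication genes formed a narrow distribution shifted towards SK-UT-1. The interquartile range was 0.569 log2 units, against 1.54 over all measured genes and 1.34 over the 11784 genes at 5 CPM or more. The summed level of the 49 genes was 5437 CPM in SK-LMS-1, against 7168 CPM in SK-UT-1, or 0.516% of the counts in SK-LMS-1, against 0.755% in SK-UT-1. Single genes ranged from 8.24 to 672 CPM in SK-LMS-1 (median 70.7) and from 10.4 to 757 CPM in SK-UT-1 (median 89.0), with TIPIN lowest and RRM2 highest in both. Levels of the 49 genes in the lines ran closely together, with Pearson's r of 0.930 on the log2 scale and Spearman's rho of 0.886, given as a description across genes that share the same pair of libraries. Library totals or upper-quartile scaling moved the median of all measured genes to -0.15 and -0.14, and the median of the replication genes minus that of all genes stayed near the value under TMM, at -0.43 under both against -0.45.

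**Figure D2:**
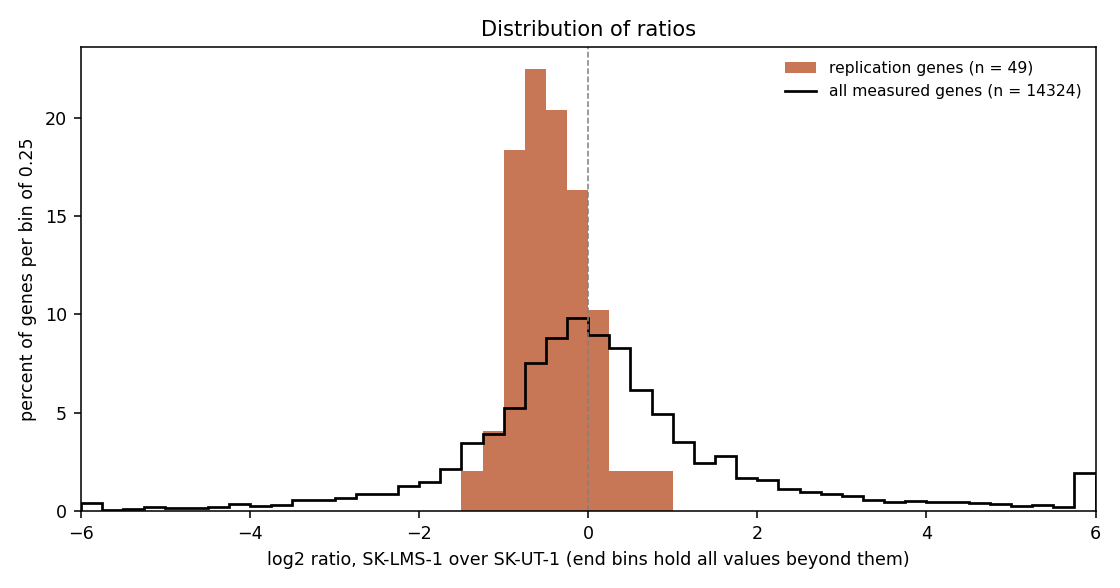
Distribution of log2 ratios (SK-LMS-1 over SK-UT-1) as the share of genes per bin, for the 49 replication genes and for all 14324 measured genes. The replication genes sit in a narrow range with a median of -0.44, and all measured genes are spread around 0.01.

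**Figure D3:**
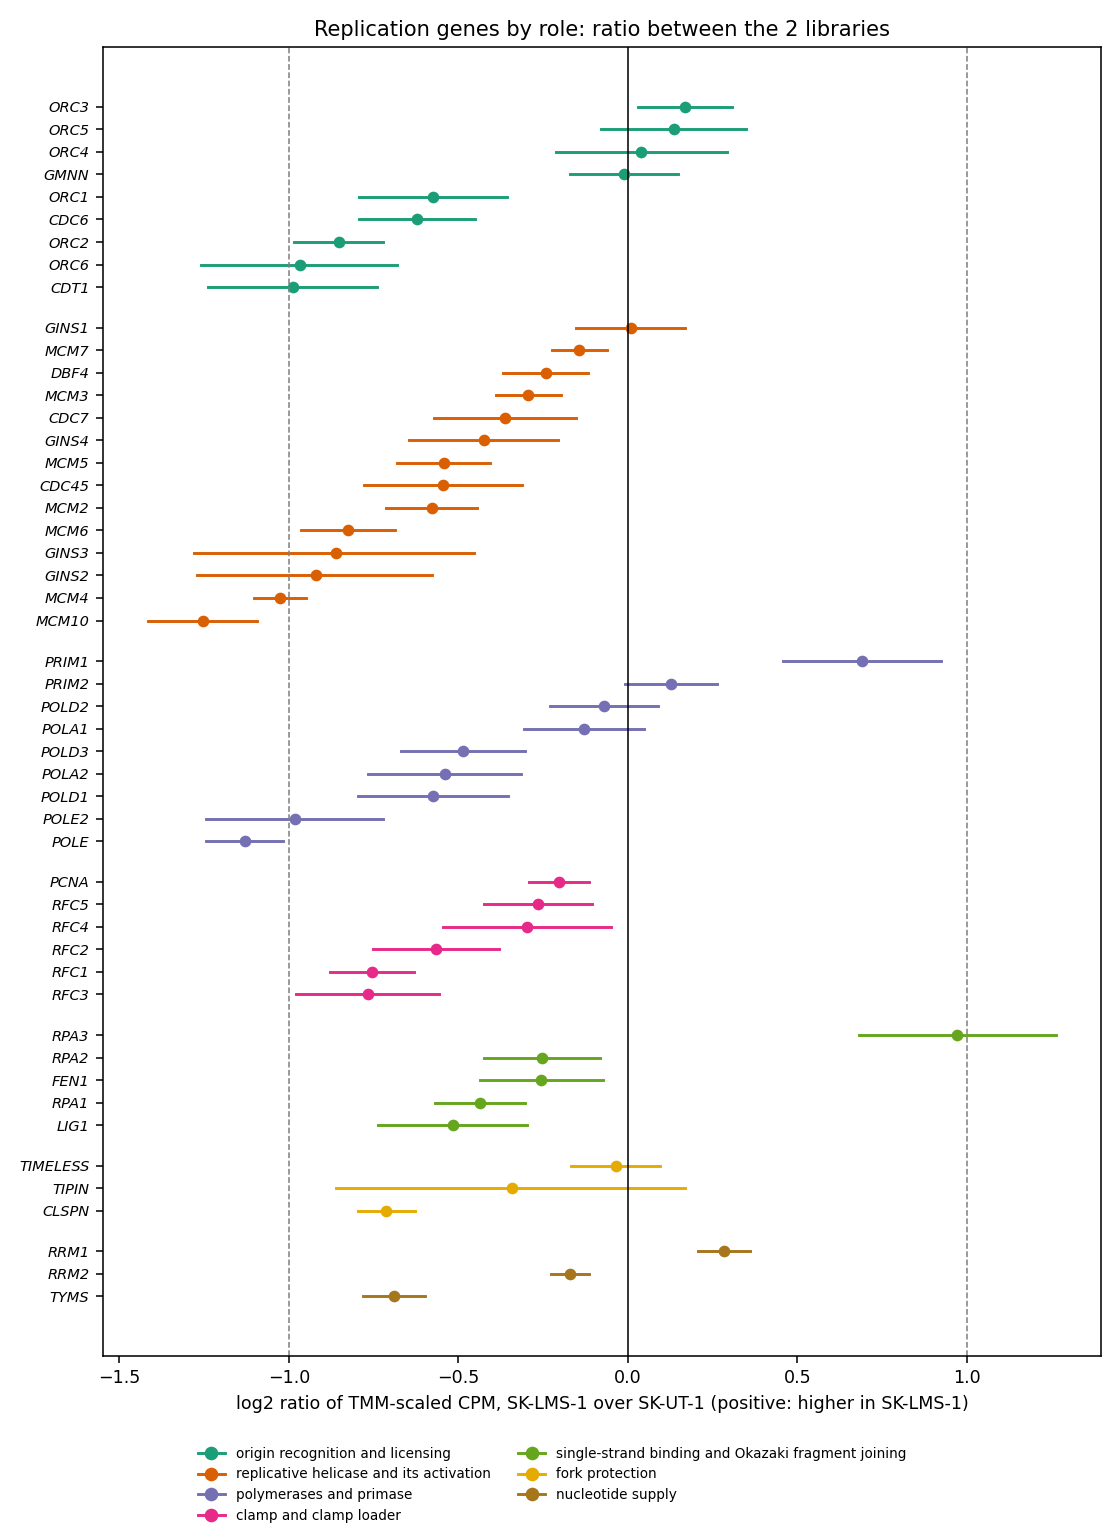
Log2 ratio of SK-LMS-1 over SK-UT-1 for each of the 49 replication genes, grouped by role, with bars for the exact 95% counting interval and dashed lines at 2-fold. Most points lie between -1 and 0, MCM10, POLE and MCM4 lie below -1, and PRIM1 and RPA3 stand above the rest at 0.69 and 0.97.

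Origin recognition and licensing genes divided by subunit, with 6 of 9 below 0, none past 2-fold and a median ratio of -0.57. Over all measured genes, 49.7% were below 0, and 21.9% passed 2-fold towards SK-LMS-1 and 18.3% towards SK-UT-1. ORC2, ORC6 and ORC1 were lower in SK-LMS-1. ORC2 had 103 CPM in SK-LMS-1, against 186 CPM in SK-UT-1 (log2 ratio -0.85, -0.99 to -0.72). ORC6 had 21.7 CPM in SK-LMS-1, against 42.4 CPM in SK-UT-1 (-0.97, -1.26 to -0.68). ORC1, the subunit whose level follows the cell cycle, had 41.2 CPM in SK-LMS-1, against 61.4 CPM in SK-UT-1 (-0.57, -0.79 to -0.36). ORC3, ORC4 and ORC5 lay near equal levels. ORC3 had 124 CPM in SK-LMS-1, against 110.1 CPM in SK-UT-1 (0.17, 0.03 to 0.31). ORC4 had 36.8 CPM in SK-LMS-1, against 35.8 CPM in SK-UT-1 (0.04, -0.21 to 0.29). ORC5 had 52.8 CPM in SK-LMS-1, against 48.1 CPM in SK-UT-1 (0.14, -0.08 to 0.35). The sign of ORC4 turned negative under library totals and upper-quartile scaling, and that of ORC5 under library totals. Per kilobase of exon, ORC4 was the lowest of the 6 subunits in both lines, at 5.23 CPM per kb in SK-LMS-1, against 5.08 CPM per kb in SK-UT-1, and the subunits spanned 9.21-fold in SK-LMS-1 and 10.04-fold in SK-UT-1.

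The loading factors CDC6 and CDT1 were both lower in SK-LMS-1, while geminin, the protein that binds CDT1 and blocks a second round of loading, had similar levels. CDT1 (chr16:88803778-88809258, hg38, plus strand) had 29.2 CPM in SK-LMS-1, against 57.8 CPM in SK-UT-1 (-0.99, -1.24 to -0.74), just inside the 2-fold rule under TMM and past it under library totals and upper-quartile scaling. CDC6, the ATPase that works with ORC, had 66.5 CPM in SK-LMS-1, against 102 CPM in SK-UT-1 (-0.62, -0.79 to -0.45). GMNN, which encodes geminin, had 89.3 CPM in SK-LMS-1, against 90.1 CPM in SK-UT-1 (-0.01, -0.17 to 0.15). Per kilobase it was the highest of the 9 genes, at 65.8 CPM per kb in SK-LMS-1, against 66.4 CPM per kb in SK-UT-1. The ratio of CDT1 to GMNN counts, in which no scaling enters, was 0.327 in SK-LMS-1, against 0.641 in SK-UT-1, higher in SK-UT-1 by 1.96-fold (1.60 to 2.42).

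Of the 14 genes of the replicative helicase and its activators, 13 had a ratio below 0 with an interval wholly below 0 (median -0.54). Over all measured genes, 49.7% had a ratio below 0. The group held 2 of the 3 genes past 2-fold, and 2 of 14 does not stand above the 18.3% of all measured genes. MCM10, which helps to activate the helicase and brings polymerase alpha to the fork (chr10:13161554-13211104, hg38, plus strand), had the lowest ratio of the 49 genes. It had 65.3 CPM in SK-LMS-1, against 156 CPM in SK-UT-1, a log2 ratio of -1.25 (-1.41 to -1.09), or higher in SK-UT-1 by 2.38-fold (2.13 to 2.67). MCM4, a subunit of the MCM2-7 ring (chr8:47960203-47978159, hg38, plus strand), had 295 CPM in SK-LMS-1, against 600.0 CPM in SK-UT-1 (-1.03, -1.10 to -0.95). That is 2.04-fold higher in SK-UT-1, with an interval of 1.93 to 2.15 that reaches below 2.

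The other subunits of the MCM2-7 ring followed in the same direction at smaller size. MCM6 had 95.4 CPM in SK-LMS-1, against 169 CPM in SK-UT-1 (-0.83, -0.96 to -0.69). MCM2 had 107 CPM in SK-LMS-1, against 159.9 CPM in SK-UT-1 (-0.58, -0.71 to -0.44). MCM5 had 103 CPM in SK-LMS-1, against 150.3 CPM in SK-UT-1 (-0.54, -0.68 to -0.41). MCM3 and MCM7 were the nearest to equal of the ring. MCM3 had 225 CPM in SK-LMS-1, against 276 CPM in SK-UT-1 (-0.29, -0.39 to -0.20). MCM7 had 328 CPM in SK-LMS-1, against 363 CPM in SK-UT-1 (-0.14, -0.22 to -0.06). The 6 proteins form a ring with 1 copy of each, and their RNAs were not at equal levels in either line. Per kilobase the order was MCM7, MCM3, MCM4, MCM5, MCM2 and MCM6 in SK-LMS-1, from 89.9 to 25.2 CPM per kb. In SK-UT-1 it was MCM4, MCM7, MCM3, MCM5, MCM2 and MCM6, from 122 to 44.7 CPM per kb. With the length of the principal transcript in place of all exons, an alternative chosen after seeing the data, MCM4 was second in SK-LMS-1 and first in SK-UT-1, and MCM7 was first in SK-LMS-1 and second in SK-UT-1. The ratio of MCM4 to MCM7 counts was 0.898 in SK-LMS-1, against 1.65 in SK-UT-1, higher in SK-UT-1 by 1.84-fold (1.71 to 1.99).

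Among the activators, GINS1 stood apart from the other subunits of its own complex. GINS1 had 89.4 CPM in SK-LMS-1, against 89.0 CPM in SK-UT-1 (0.01, -0.15 to 0.17), a sign that turned negative under library totals and upper-quartile scaling. GINS2 had 15.4 CPM in SK-LMS-1, against 29.2 CPM in SK-UT-1 (-0.92, -1.27 to -0.58). GINS3 had 11.1 CPM in SK-LMS-1, against 20.3 CPM in SK-UT-1 (-0.86, -1.28 to -0.46). The other 3 subunits were all lower in SK-LMS-1, GINS4 by the least. GINS4 had 42.3 CPM in SK-LMS-1, against 56.8 CPM in SK-UT-1 (-0.43, -0.65 to -0.21). GINS is a ring of 4 subunits that keeps the helicase in its active form. The ratio of GINS2 to GINS1 counts was 0.172 in SK-LMS-1, against 0.328 in SK-UT-1, higher in SK-UT-1 by 1.90-fold (1.46 to 2.49). CDC45, the partner of GINS on the helicase, had 36.6 CPM in SK-LMS-1, against 53.4 CPM in SK-UT-1 (-0.54, -0.78 to -0.31). The kinase CDC7 had 46.7 CPM in SK-LMS-1, against 60.0 CPM in SK-UT-1 (-0.36, -0.57 to -0.15), and its regulatory subunit DBF4 had 135 CPM in SK-LMS-1, against 159 CPM in SK-UT-1 (-0.24, -0.37 to -0.12).

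**Figure D4:**
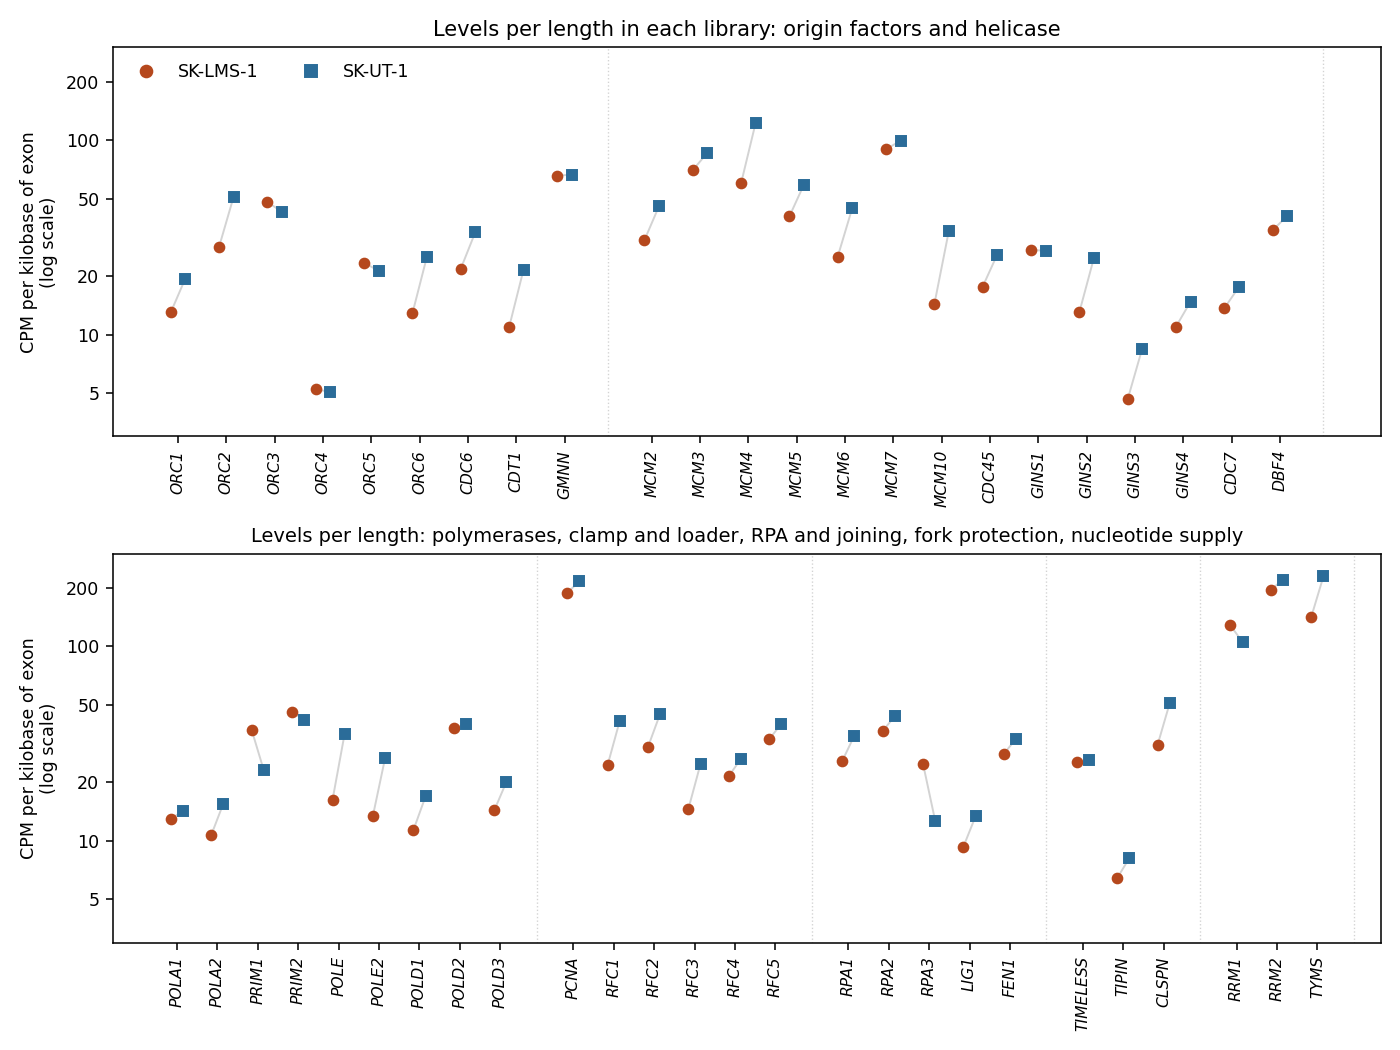
Level of each replication gene in CPM per kilobase of exon (vertical log axis), as a circle for SK-LMS-1 and a square for SK-UT-1 joined by a line, with roles divided by dotted lines. RRM2, PCNA, TYMS and RRM1 stand highest in SK-LMS-1, MCM4 (122 CPM per kb) lies above RRM1 (105) in SK-UT-1, ORC4, GINS3 and TIPIN are lowest in both, and for 41 of the 49 genes the square is the higher.

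The polymerases differed by subunit, with 7 of 9 genes below 0, beside 49.7% of all measured genes, and a median ratio of -0.49. POLE, the catalytic subunit of the leading-strand polymerase epsilon (chr12:132623762-132687524, hg38, minus strand), had 130.0 CPM in SK-LMS-1, against 285 CPM in SK-UT-1. Its log2 ratio was -1.13 (-1.25 to -1.02), or higher in SK-UT-1 by 2.19-fold (2.02 to 2.37). POLE2, the second subunit of epsilon, had 26.3 CPM in SK-LMS-1, against 51.8 CPM in SK-UT-1 (-0.98, -1.25 to -0.72), and passed 2-fold under library totals and upper-quartile scaling. The small histone-fold subunits POLE3 and POLE4, which were not among the 49, had ratios of -0.48 and 0.20. The ratio of POLE to POLE4 counts was 11.4 in SK-LMS-1, against 28.7 in SK-UT-1, higher in SK-UT-1 by 2.52-fold (1.80 to 3.54).

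For the lagging-strand polymerase delta, the ratios of POLD1, POLD2 and POLD3 were nearer to 0 than those of POLE and POLE2. POLD1, its catalytic subunit, had 40.3 CPM in SK-LMS-1, against 60.0 CPM in SK-UT-1 (-0.57, -0.80 to -0.36). POLD3 had 59.5 CPM in SK-LMS-1, against 83.4 CPM in SK-UT-1 (-0.49, -0.67 to -0.30). POLD2 had 87.6 CPM in SK-LMS-1, against 91.9 CPM in SK-UT-1 (-0.07, -0.23 to 0.09). POLD4, the smallest subunit of delta and not among the 49, ran the other way, at 15.9 CPM in SK-LMS-1, against 2.11 CPM in SK-UT-1. It was 7.51 times as high in SK-LMS-1 (4.47 to 13.4). The value rests on 104 counts in SK-LMS-1, against 17 in SK-UT-1. POLD1 had 2.54 counts per POLD4 count in SK-LMS-1, against 28.4 in SK-UT-1, higher in SK-UT-1 by 11.2-fold (6.48 to 20.3).

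In the polymerase alpha-primase complex, which lays down the RNA-DNA primers, the small primase subunit went against most of the replication genes. PRIM1, the catalytic primase subunit (chr12:56731580-56752362, hg38, minus strand), had 54.5 CPM in SK-LMS-1, against 33.8 CPM in SK-UT-1. Its log2 ratio was 0.69 (0.46 to 0.92), which makes SK-LMS-1 the higher by 1.61-fold (1.37 to 1.89). PRIM2, the large primase subunit, had 126 CPM in SK-LMS-1, against 116 CPM in SK-UT-1 (0.13, -0.01 to 0.26), with a sign that turned negative under library totals and upper-quartile scaling. It had the highest level per length of the 9 genes, at 45.9 CPM per kb in SK-LMS-1, against 42.0 CPM per kb in SK-UT-1. POLA1 had 70.7 CPM in SK-LMS-1, against 77.3 CPM in SK-UT-1 (-0.13, -0.31 to 0.05), and POLA2, its accessory subunit, had 39.1 CPM in SK-LMS-1, against 56.8 CPM in SK-UT-1 (-0.54, -0.77 to -0.32). The ratio of POLA2 to PRIM1 counts was 0.717 in SK-LMS-1, against 1.68 in SK-UT-1, higher in SK-UT-1 by 2.34-fold (1.87 to 2.94).

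The sliding clamp and its loader were lower in SK-LMS-1 in all 6 genes, where 49.7% of all measured genes were. None passed 2-fold, every interval lay below 0 and the median ratio was -0.43. PCNA, the ring that tethers polymerases to DNA, was closest to equal, at 271 CPM in SK-LMS-1, against 312 CPM in SK-UT-1 (-0.20, -0.29 to -0.12). It was also the highest of the 6 per kilobase, at 188 CPM per kb in SK-LMS-1, against 216 CPM per kb in SK-UT-1. RFC1, the large subunit of the loader, had 120.0 CPM in SK-LMS-1, against 202 CPM in SK-UT-1 (-0.75, -0.88 to -0.63), and RFC3, a small subunit, had 42.0 CPM in SK-LMS-1, against 71.4 CPM in SK-UT-1 (-0.77, -0.98 to -0.56). RFC2 had 56.2 CPM in SK-LMS-1, against 83.1 CPM in SK-UT-1 (-0.57, -0.75 to -0.38). RFC4 and RFC5, also small subunits, differed less, with RFC4 at 34.2 CPM in SK-LMS-1, against 42.0 CPM in SK-UT-1 (-0.30, -0.55 to -0.05) and RFC5 at 82.6 CPM in SK-LMS-1, against 99.2 CPM in SK-UT-1 (-0.26, -0.42 to -0.10). Per kilobase the 5 loader subunits spanned 2.28-fold in SK-LMS-1 and 1.81-fold in SK-UT-1.

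Replication protein A coats single-stranded DNA as a trimer, and its smallest subunit went the opposite way to the other two. RPA3 (chr7:7636944-7718607, hg38, minus strand) had 39.7 CPM in SK-LMS-1, against 20.3 CPM in SK-UT-1, a log2 ratio of 0.97 (0.68 to 1.26), which makes SK-LMS-1 the higher by 1.96-fold (1.60 to 2.40). RPA1, the large subunit, had 112 CPM in SK-LMS-1, against 151 CPM in SK-UT-1 (-0.44, -0.57 to -0.30). RPA2 had 71.7 CPM in SK-LMS-1, against 85.5 CPM in SK-UT-1 (-0.25, -0.43 to -0.08). Per kilobase the order was RPA2, RPA1 and RPA3 in both lines, spanning 1.47-fold in SK-LMS-1 and 3.44-fold in SK-UT-1. The exons of RPA3 overlap those of UMAD1 on the opposite strand over 11.7% of their length, and the counting was stranded. FEN1, the flap nuclease of Okazaki fragments, had 64.4 CPM in SK-LMS-1, against 76.9 CPM in SK-UT-1 (-0.26, -0.44 to -0.08), and LIG1, the ligase that seals them, had 41.1 CPM in SK-LMS-1, against 58.8 CPM in SK-UT-1 (-0.52, -0.74 to -0.30).

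The fork protection factors, which couple the helicase to the checkpoint, had ratios below 0 in 3 of 3 genes, beside 49.7% of all measured genes. For 2 of the 3, TIMELESS and TIPIN, the interval spanned 0. CLSPN, the checkpoint mediator claspin, had 265 CPM in SK-LMS-1, against 434 CPM in SK-UT-1 (-0.71, -0.80 to -0.63). TIMELESS had 130.5 CPM in SK-LMS-1, against 134 CPM in SK-UT-1 (-0.04, -0.17 to 0.09), and its partner TIPIN had 8.24 CPM in SK-LMS-1, against 10.4 CPM in SK-UT-1 (-0.34, -0.86 to 0.17). Claspin per TIMELESS count was 2.03 in SK-LMS-1, against 3.24 in SK-UT-1, higher in SK-UT-1 by 1.60-fold (1.43 to 1.78).

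The enzymes of nucleotide supply were among the most abundant replication transcripts and differed in direction. RRM1, the large subunit of ribonucleotide reductase, which makes deoxynucleotides, had 409 CPM in SK-LMS-1, against 336 CPM in SK-UT-1 (0.28, 0.21 to 0.36). RRM2, its small subunit made in S phase, had 672 CPM in SK-LMS-1, against 757 CPM in SK-UT-1 (-0.17, -0.23 to -0.12), or 196 CPM per kb in SK-LMS-1, against 220.3 CPM per kb in SK-UT-1. TYMS, thymidylate synthase, had 225 CPM in SK-LMS-1, against 363 CPM in SK-UT-1 (-0.69, -0.78 to -0.60), or 142 CPM per kb in SK-LMS-1, against 229 CPM per kb in SK-UT-1. TYMS shares 62.8% of its exon length with ENOSF1 and TYMSOS on the opposite strand, and the value rests on the strand setting of the counting. TYMS per RRM1 count was 0.550 in SK-LMS-1, against 1.08 in SK-UT-1, higher in SK-UT-1 by 1.96-fold (1.81 to 2.13).

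Other initiation and fork genes gave counts on the same side, with some wider single differences. Of 15 measured further initiation factors, none was higher by 2-fold or more in SK-LMS-1 and 6 were in SK-UT-1 (median -0.42), beside 21.9% of all measured genes towards SK-LMS-1 and 18.3% towards SK-UT-1. CDC25A, the phosphatase that switches on the S-phase kinases, had 25.8 CPM in SK-LMS-1, against 82.6 CPM in SK-UT-1 (-1.68, -1.93 to -1.43). MCIDAS, known for multiciliated cell fate, had 1 count in SK-LMS-1, against 49 in SK-UT-1, a raw ratio of 39.9-fold higher in SK-UT-1 with a counting interval of 6.83 to 1607. With the floor of 3 counts it was 13.3-fold. Of 17 measured further fork and Okazaki fragment factors, POLD4 was higher by 2-fold or more in SK-LMS-1 and 5 genes were in SK-UT-1 (median -0.48), beside the same shares of all measured genes. DTL, which directs the destruction of CDT1, had 45.2 CPM in SK-LMS-1, against 152 CPM in SK-UT-1 (-1.75, -1.94 to -1.56), and PCLAF, a PCNA-binding protein listed under its older name KIAA0101, had 26.7 CPM in SK-LMS-1, against 78.5 CPM in SK-UT-1 (-1.56, -1.81 to -1.31).

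Further genes of nucleotide supply were split evenly, with 8 of 16 genes above 0, 8 below and a median of 0.01. TK1, thymidine kinase, had 35.6 CPM in SK-LMS-1, against 76.9 CPM in SK-UT-1 (-1.11, -1.34 to -0.89), and SHMT1, a folate enzyme, had 13.1 CPM in SK-LMS-1, against 33.3 CPM in SK-UT-1 (-1.34, -1.71 to -0.99). These 2 were the genes of that list past 2-fold in SK-UT-1, beside 18.3% of all measured genes. None was past it in SK-LMS-1, beside 21.9%. The 9 genes listed for translesion synthesis, not all of them polymerases, were all within 2-fold, beside 59.8% of all measured genes (4 above 0 and 5 below, median -0.04). The list of histone chaperones and chromatin assembly, not all of whose genes encode chaperones, had a median of -0.74. Of its 14 genes, 6 were higher by 2-fold or more in SK-UT-1 and none in SK-LMS-1. The shares of all measured genes were 18.3% towards SK-UT-1 and 21.9% towards SK-LMS-1. RBBP4, a subunit of the chromatin assembly factor CAF-1 and other complexes, had 181 CPM in SK-LMS-1, against 547 CPM in SK-UT-1 (-1.60, -1.69 to -1.503). SLBP, the histone mRNA-binding protein, had 85.6 CPM in SK-LMS-1, against 232 CPM in SK-UT-1 (-1.44, -1.58 to -1.30).

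Genes of mitosis had ratios on the same side as the replication genes. Of 15, none was higher by 2-fold or more in SK-LMS-1 and 2 were in SK-UT-1, 12 were below 0, and the median was -0.54. Over all measured genes, 18.3% were higher by that size in SK-UT-1 and 49.7% were below 0, so the count past 2-fold does not stand above the background. Their summed level was 3781 CPM in SK-LMS-1, against 5349.5 CPM in SK-UT-1. PLK1, a mitotic kinase, had 96.3 CPM in SK-LMS-1, against 232 CPM in SK-UT-1 (-1.27, -1.40 to -1.14), and CENPF, a kinetochore protein, had 496 CPM in SK-LMS-1, against 1056 CPM in SK-UT-1 (-1.09, -1.15 to -1.03). The part of the share of dividing cells in the ratios of the replication genes was not tested. Single markers of other cell types ran in both directions. Of 8 leukocyte markers 2 were measured, with summed levels of 92.5 CPM in SK-LMS-1, against 16.03 CPM in SK-UT-1. Nearly all of this was CD68, a lysosomal protein, at 91.9 CPM in SK-LMS-1, against 14.5 CPM in SK-UT-1, and the defining markers PTPRC, MS4A1 and LYZ were at 0 in both. CD14, a monocyte marker, had 1 count in SK-LMS-1, against 9 in SK-UT-1. Endothelial markers summed to 1.53 CPM in SK-LMS-1, against 1.37 CPM in SK-UT-1, which is 10 counts in SK-LMS-1, against 11 in SK-UT-1. PECAM1 had 8 counts in SK-LMS-1, against 0 in SK-UT-1, CLDN5 had 0 counts in SK-LMS-1, against 11 in SK-UT-1, and VWF and KDR were at 0 in both. Epithelial markers summed to 101 CPM in SK-LMS-1, against 48.0 CPM in SK-UT-1, led by KRT18 at 73.3 CPM in SK-LMS-1, against 10.6 CPM in SK-UT-1, with EPCAM at 1 count in SK-LMS-1, against 9 in SK-UT-1, and CDH1 at 0 in SK-LMS-1, against 4 in SK-UT-1. KRT19 had 9.92 CPM in SK-LMS-1, against 19.3 CPM in SK-UT-1. Fibroblast markers summed to 1535 CPM in SK-LMS-1, against 582.6 CPM in SK-UT-1. Of 6 such markers 5 were measured, and 4 were higher by 2-fold or more in SK-LMS-1, beside 21.9% of all measured genes. COL1A1, a fibrillar collagen chain, had 776 CPM in SK-LMS-1, against 54.9 CPM in SK-UT-1 (3.82, 3.68 to 3.96). PDGFRA, a growth factor receptor, had 259 counts in SK-LMS-1, against 3 in SK-UT-1. COL1A2 was nearer to equal, at 545 CPM in SK-LMS-1, against 467 CPM in SK-UT-1 (0.22, 0.15 to 0.29). DCN had 1 count in SK-LMS-1, against 0 in SK-UT-1.

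The ratios were also set beside those of neighbouring genes on the genome. For each replication gene the comparison was with the median of the other measured genes centred within 5 Mb, of which there were 13 to 223. The ratio was below the median of its neighbours for 44 of 49 genes, where 49.9% of all measured genes lie below theirs, and the median difference was -0.43. This count was added after seeing the data, as were windows of 2 Mb and 10 Mb, for which the number was 42 genes at 2 Mb and 46 at 10 Mb. The share of all measured genes is given for 5 Mb only, so the counts at 2 Mb and 10 Mb have no matching background. ORC6, CDT1, GINS2 and GINS3 all lie on chromosome 16, where their ratios ran from -0.99 to -0.86, and the 579 other measured genes of that chromosome had a median of -0.58. On chromosome 7 the 6 replication genes had a median of -0.11 and the 690 other genes a median of 0.56, and on chromosome 6 the 4 replication genes had 0.06 and the 632 others 0.53. On chromosome 22 the medians were alike, at -0.54 for the 2 replication genes and -0.55 for the 326 others. The chromosomes named are examples. Across the 49 genes, the ratio and the median of its neighbours had Pearson's r of 0.371 and Spearman's rho of 0.433, a description across genes that share the same pair of libraries. The part of regional differences in the ratios of the replication genes was not tested.

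**Figure D5:**
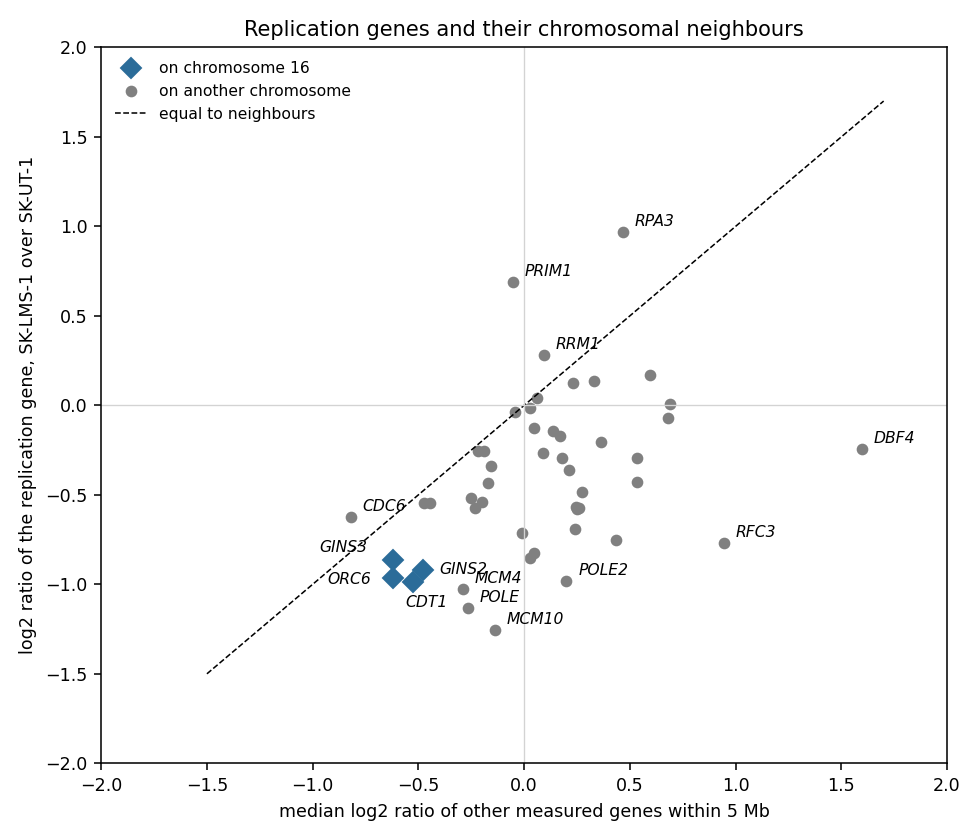
Log2 ratio of each replication gene (vertical axis) against the median log2 ratio of the other measured genes within 5 Mb (horizontal axis), with the line of equal values. Of the 49 points, 44 lie below the line, and the chromosome 16 genes stand together at the lower left.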

How the data were processed

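Total RNA libraries had been prepared with a stranded SMARTer kit, per the labels' protocols. Gene counts were used raw, as deposited. Per the file headers they were made on hg38 with featureCounts 2.0.1 over exons of a UCSC annotation with strand setting 1. The header also records that fragments overlapping several genes were counted for each and gives no option for fragments that align to several places, so genes with near-identical copies can lose counts. Pseudogenes were looked up by name in the GENCODE annotation, not in the UCSC annotation of the counts. There, 9 of the 49 have them: DBF4, FEN1, PCNA, POLD2, RFC3, RFC5, RPA2, RRM2 and TYMS. None of the 49 shares exons with another gene on its own strand. For the aligner, the name was not given in the sources used. A further 2 count columns match neither sample and were not used.

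Counts were scaled to CPM with edgeR 4.0.16 in R 4.3.3 (TMM factor 0.949 in SK-LMS-1, against 1.05 in SK-UT-1). Counts below 3 were raised to 3 for ratios (0.458 CPM in SK-LMS-1, against 0.373 CPM in SK-UT-1), except where a raw ratio is named. Intervals are conditional binomial (Clopper-Pearson, scipy 1.17.1), cover counting error only, and treat amplified fragments as independent. With 1 library per line no test was run. Levels per length used the exon length of the table. The procedure was tested on simulated data, but no setting or outcome is given here, so this adds no support to the values. Alternatives used library totals, upper-quartile factors from edgeR or size factors from DESeq2 1.42.0 as the scaling, and different filters, floors and size rules.

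The 49 genes and the lists were chosen with earlier results of these data known. Values of every gene of the 49 are given. From each other list, up to 2 genes per direction were named among those at least 2-fold different at 5 CPM or more. Marker genes at or near 0, CALD1, DES, KRT19, COL1A2, POLE3 and POLE4 were added after seeing the data. So were the pairs of genes, the principal transcript length and the counts above and below 0. The same holds for the counts of genes below their neighbours and the windows of 2 and 10 Mb.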

Additional observations from a re-analysis of the deposited data

How the results depend on the processing

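With DESeq2 size factors, the counts past 2-fold, the median (-0.44) and the direction of each of the 49 genes were the same as under TMM. Library sizes after this scaling were close to those of TMM, so little change was possible. They were 6555114 against 6552304 for SK-LMS-1, with 8044913 against 8048362 for SK-UT-1. Other filters and a floor of 1 count also left these values the same, but could not have changed them. The lowest count of any of the 49 was 54, and every gene reached 10.4 CPM or more in SK-UT-1. With library totals, 9 genes were higher by 2-fold or more in SK-UT-1, beside 21.6% of all measured genes. The median was then -0.59 and 4 genes were above 0. With upper-quartile scaling, 7 genes were past 2-fold in that direction, beside 21.3%, the median was -0.57 and 5 genes were above 0. These scalings also moved the median of all measured genes, to -0.15 and -0.14. The share of all measured genes above 0 is not given for them, so the counts above 0 have no matching background. ORC6, CDT1, GINS2 and POLE2 passed 2-fold under both of these scalings, and ORC2 and GINS3 under library totals. Single ratios moved outside their counting interval for 19 genes under library totals, 13 under upper-quartile scaling and 0 under DESeq2 size factors. At 1.5-fold, 2 genes were higher in SK-LMS-1, against 15 in SK-UT-1, beside 30.8% and 28.3% of all measured genes. With the whole interval required to lie past 2-fold, 2 genes were higher in SK-UT-1, MCM10 and POLE. The share of all measured genes under that rule is not given, so this count has no background to be read against. Depth limits the precision of the low genes: the interval of TIPIN, from 54 counts in SK-LMS-1, against 84 in SK-UT-1, spans 0. No paired analysis was possible because each line has 1 library.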
